A study of Rattus norvegicus with 30 samples.

Results

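The comparison described here set the ileum of rats after vertical sleeve gastrectomy (VSG) against the ileum of sham-operated, pair-fed rats (Sham_VSG_PF), taken by their sample titles as 6 VSG and 6 Sham_VSG_PF arrays, 12 of the 30 arrays of the series. The ileum is the last stretch of the small intestine. All rats were wild-type (WT) Long-Evans males of 8 to 10 weeks, kept free of specific pathogens, opened at the midline under isoflurane, and given the liquid diet Osmolite in place of solid food from the day before the operation. In VSG about 80% of the stomach was cut away with a stapler along the greater curvature. In the sham operation the same line on the stomach was only pressed with blunt forceps, and Sham_VSG_PF rats had this sham operation and paired feeding. The Sham_VSG group (6 arrays) had the sham operation without paired feeding, and 6 rats each had gastric bypass (RYGB) or the sham operation for it (Sham_RYGB). Each array holds 1 rat, a biological replicate by its label. The interval between operation and sampling, the food ration and whether rats had eaten before sampling are not given in the sources used here.

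A smaller stomach can change 2 things at once, namely how much a rat eats and how food, bile and hormones reach the gut. Paired feeding gives a sham-operated rat the ration of an operated one, so that VSG against Sham_VSG_PF compares the groups at matched food intake. The ileum is known as the site where bile acids are taken back, where L cells release the hormones GLP-1 and PYY, and where enterocytes take up what the proximal gut has left.

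Expression was read as log2 RMA intensity, a background-corrected and normalized brightness on which a step of 1 is a 2-fold change. Apart from a rough check of markers, a level is compared only with the same gene's level in another group. Probes of different genes differ in brightness. The tissue label was checked against marker genes in the 12 arrays. The ileal bile acid binding protein gene Fabp6 read 11.97 to 12.12, the bile acid importer Slc10a2 read 9.77 to 10.84, and the epithelial genes Vil1, Cdx2 and Epcam lay at or above the 94.6th percentile of named genes. Markers of other sites lay at lower percentiles. Gata4, which marks proximal gut, read 1.92 to 2.77, the stomach gene Gkn1 1.68 to 2.52, and the distal colon gene Hoxd13 1.32 to 1.69. Some were brighter: the proximal gene Lct read 3.17 to 5.34, the stomach gene Tff1 2.84 to 4.32 and the pancreatic gene Cela1 3.21 to 4.19. Car1, used as a colon marker, varied from 4.06 to 9.02.

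Some arrays stood apart in the cell types they held. Averaged over their list, B and plasma cell genes lay between 6.74 and 7.89 in 11 of the 30 arrays and between 4.42 and 5.24 in the rest. The upper range held VSG replicates 1 and 4 and Sham_VSG_PF replicates 1 and 5, so the groups compared had the same number of them. The fat cell list was high in VSG replicate 1 alone of the 12 (a mean of 6.78, against at most 4.94 in the other 11). In bulk tissue, fewer cells of a type and less RNA per cell cannot be told apart. Without the 4 arrays high in B and plasma cell genes, 4 VSG arrays against 4 Sham_VSG_PF arrays differed by 1.86 for S100g, 1.24 for Slc30a10, 1.42 for Tm4sf5, 0.94 for Mfsd2a, 0.68 for Per1 and 2.18 for Fgf19, the genes described below.

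No gene passed the test. In a limma fit over the 30 arrays with Benjamini-Hochberg adjustment over 10918 genes, 0 genes (0%) had an adjusted p below 0.05, and the lowest adjusted p was 0.489. At an unadjusted limma p below 0.05 there were 649 genes, 5.94% of those tested: 279 (2.56%) were higher and 370 (3.39%) lower in VSG. Complete separation of the 6 VSG from the 6 Sham_VSG_PF arrays was seen in 29 genes (0.266%), 12 with VSG above and 17 with VSG below. Differences were mostly small: the median absolute log2 difference was 0.11, and the median 95% confidence interval reached 0.31 to either side. Only 10 genes differed by at least 2-fold and 87 by at least 1.5-fold. By mean alone, 4946 of the 10918 genes were higher in VSG and 5970 lower. The counts of higher and lower list members below stand beside these numbers, and no list was tested. All differences named below therefore describe these 12 rats, with intervals and with adjusted p-values that missed the threshold.

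**Figure D1:**
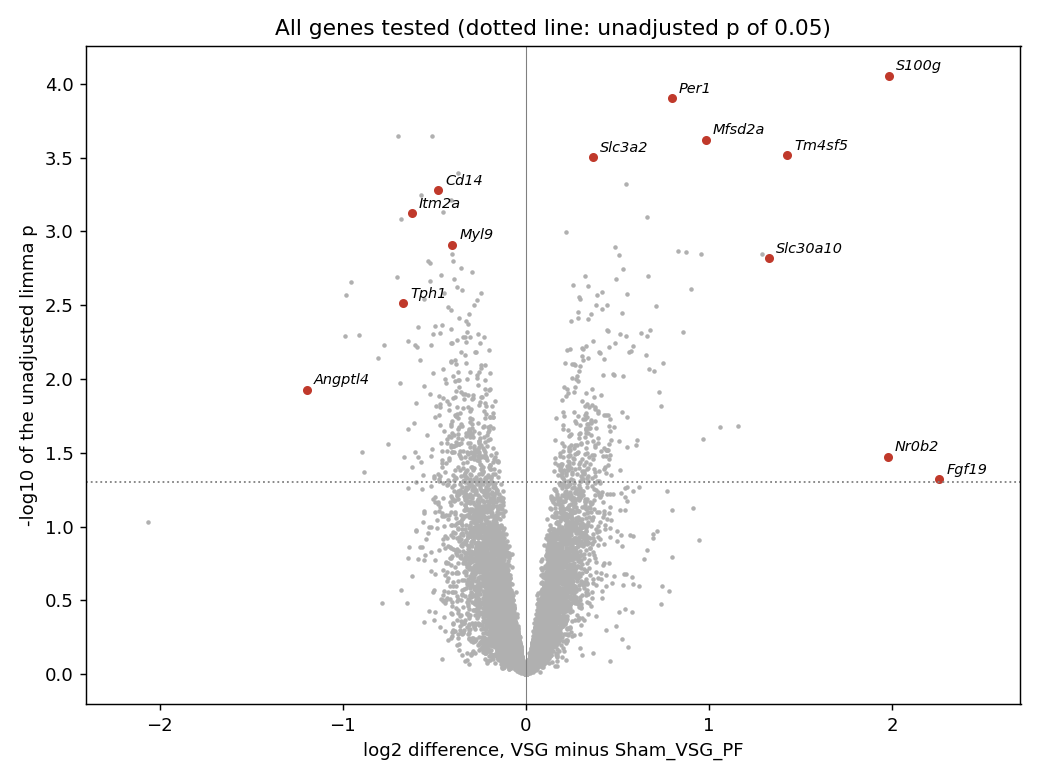
Every gene tested, with the log2 difference VSG minus Sham_VSG_PF on the horizontal axis and -log10 of the unadjusted limma p on the vertical axis. S100g has both a large difference and the smallest p, whereas Fgf19 and Nr0b2 have differences as large with an unadjusted p just under 0.05, and no gene passed after adjustment.

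S100g had the smallest p of all genes and, at 3.95-fold, the second largest positive difference. It encodes calbindin-D9k, the calcium-carrying protein that enterocytes make under the control of vitamin D. The 6 VSG arrays read 11.05, 10.93, 10.98, 10.09, 9.70 and 10.51, the 6 Sham_VSG_PF arrays 8.02, 8.00, 8.61, 9.81, 8.66 and 8.29, and the 6 Sham_VSG arrays 9.38, 9.36, 8.18, 8.22, 9.03 and 8.62. All VSG arrays lay above all Sham_VSG arrays, and above all Sham_VSG_PF arrays but replicate 4, which exceeded VSG replicate 5. The means were 10.54 ± 0.55 and 8.56 ± 0.67 (SD, n = 6), a log2 difference of 1.98 with a 95% interval of 1.09 to 2.87 (limma adjusted p = 0.489). The Sham_VSG mean of 8.80 lay close to that of the pair-fed rats.

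Slc30a10 was the next of the vitamin D and calcium genes. It encodes a manganese exporter. VSG arrays read 6.85, 7.84, 7.47, 6.44, 6.79 and 7.58, against 5.50, 6.50, 6.00, 6.62, 4.79 and 5.58 in Sham_VSG_PF and 7.01, 5.03, 6.43, 5.82, 5.87 and 6.22 in Sham_VSG. Of the VSG arrays, 5 lay above every pair-fed array, and replicate 4 lay below 2 of them. The difference from Sham_VSG_PF was 1.33 (95% interval 0.55 to 2.10), or 2.51-fold, with an adjusted p of 0.579. Both genes were also higher by mean after gastric bypass in separate rats, where RYGB exceeded Sham_RYGB by 1.76 for S100g (adjusted p = 0.0921) and by 1.17 for Slc30a10 (adjusted p = 0.212). The list of vitamin D and calcium absorption genes had 8 of 10 tested members higher in VSG and 0 past the threshold, with a median difference of 0.17 beside -0.02 over all genes tested. Another member with an unadjusted p under 0.05, Slc20a1, a phosphate importer, differed by 0.55 (0.06 to 1.04), while the other 7 members lay nearer to 0.

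**Figure D2:**
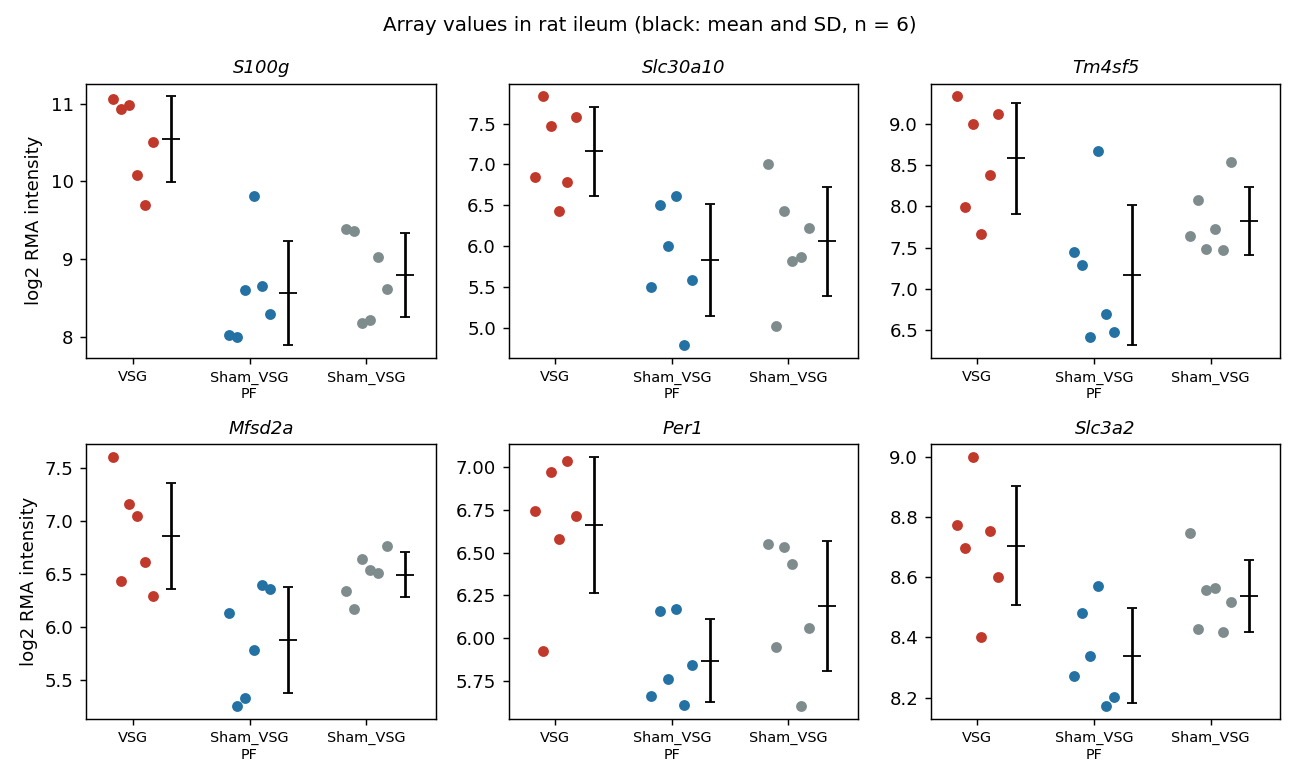
Log2 RMA intensity of 6 genes in each rat of the VSG, Sham_VSG_PF and Sham_VSG groups, with 1 point per array in the order of replicate numbers and the mean and SD (n = 6) in black. VSG points lie mostly above the pair-fed points in all 6 panels, and in S100g the freely fed sham points lie at the level of the pair-fed ones.

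Tm4sf5 and Mfsd2a followed. Tm4sf5, a membrane protein of the 4-transmembrane L6 family, read 9.34, 8.00, 9.001, 7.67, 8.38 and 9.13 in VSG and 7.45, 7.29, 6.41, 8.67, 6.69 and 6.47 in Sham_VSG_PF. The single high pair-fed value, 8.67 in replicate 4, lay above 3 of the VSG arrays, and all other pair-fed values lay below every VSG value. The difference was 1.42 (0.72 to 2.13), or 2.68-fold, with an adjusted p of 0.489, and the Sham_VSG mean of 7.82 lay midway. Mfsd2a carries lysophosphatidylcholine with its fatty acid across the cell membrane. Its VSG arrays read 7.60, 6.43, 7.16, 7.05, 6.61 and 6.29 and its pair-fed arrays 6.13, 5.25, 5.34, 5.79, 6.39 and 6.35. Here replicates 5 and 6 of Sham_VSG_PF came within the VSG range, whose lowest value was 6.29. The means of 6.86 ± 0.50 and 5.88 ± 0.50 (SD, n = 6) differed by 0.98 (0.50 to 1.46; adjusted p = 0.489), and Sham_VSG, at 6.49, was nearer to VSG. In the bypass rats the corresponding differences were 0.94 for Tm4sf5 and 0.10 for Mfsd2a (adjusted p = 0.253 and 0.871).

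Per1, a repressor of the circadian clock that glucocorticoids also induce, had the second smallest p. VSG arrays read 6.74, 5.93, 6.97, 6.58, 7.04 and 6.72 and Sham_VSG_PF arrays 5.66, 6.16, 5.76, 6.17, 5.61 and 5.84. VSG replicate 2 lay among the pair-fed values, and the other 5 lay above all of them. The difference was 0.80 (0.43 to 1.16; adjusted p = 0.489). Sham_VSG ran from 5.60 to 6.55, across the gap between most values of the groups, and RYGB differed from its sham by -0.01. Of 11 circadian clock genes 9 were higher in VSG, with a median of 0.16 and 0 past the threshold. Dbp, a clock output factor, was higher by 0.61 (0.08 to 1.14), and Nfil3, which opposes it at the same DNA sites, differed by -0.59 (-1.13 to -0.05), both with an adjusted p of 0.780. These 2 genes, like the other list members named here with an unadjusted p under 0.05 that are not among the 56 genes named by rule, were chosen after their values were seen. The hour at which tissue was taken is not given in the sources used here, so a part of it in these values was not tested.

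The start regions of 4 of the genes discussed are shown to let the letters be read beside the values: Per1 and Tm4sf5 from the genes of smallest p, Creb3l3 as the leading lipid regulator, and Nr0b2 as a bile acid target. They are the 250 bases before the RefSeq gene start in GRCr8, 5′ to 3′ on the gene's strand, which is + for all 4: chr10:54304126-54304375 for Per1, chr10:55717764-55718013 for Tm4sf5, chr7:9273070-9273319 for Creb3l3 and chr5:151062910-151063159 for Nr0b2. Capitals mark matches to any of 7 motifs, searched on both strands: the TATA box TATAAA, the E-box CACGTG of clock and other helix-loop-helix factors, the CREB half-site TGACG, the nuclear receptor half-sites AGGTCA and AGTTCA, the Nr5a2 half-site TCAAGG and the GATA site GATAAG.
Per1: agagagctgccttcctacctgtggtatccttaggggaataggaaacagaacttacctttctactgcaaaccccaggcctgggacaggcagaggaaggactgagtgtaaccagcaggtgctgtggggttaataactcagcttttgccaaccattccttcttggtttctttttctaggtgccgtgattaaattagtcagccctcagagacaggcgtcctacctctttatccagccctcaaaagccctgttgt
Tm4sf5: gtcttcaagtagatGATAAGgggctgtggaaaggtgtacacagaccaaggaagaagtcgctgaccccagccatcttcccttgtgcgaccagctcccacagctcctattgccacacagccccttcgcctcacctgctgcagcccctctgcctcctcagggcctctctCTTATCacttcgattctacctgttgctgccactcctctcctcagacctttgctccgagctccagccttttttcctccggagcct
Creb3l3: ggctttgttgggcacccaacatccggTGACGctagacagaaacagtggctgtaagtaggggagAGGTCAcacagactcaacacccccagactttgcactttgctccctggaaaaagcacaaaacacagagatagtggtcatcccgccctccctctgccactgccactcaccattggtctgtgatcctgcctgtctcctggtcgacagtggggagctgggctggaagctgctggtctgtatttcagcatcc
Nr0b2: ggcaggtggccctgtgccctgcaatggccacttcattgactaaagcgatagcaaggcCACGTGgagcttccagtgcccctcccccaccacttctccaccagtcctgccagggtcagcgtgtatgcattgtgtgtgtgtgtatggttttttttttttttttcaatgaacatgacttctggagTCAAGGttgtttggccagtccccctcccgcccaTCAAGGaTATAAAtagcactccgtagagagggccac

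No match to the 7 motifs lay in the Per1 window. Tm4sf5 held GATAAG 236 bases before the start and its reverse complement 84 bases before it. Creb3l3 held TGACG at 224 and AGGTCA at 187 bases. Nr0b2 held CACGTG at 193, TCAAGG at 69 and at 36, and TATAAA at 29 bases before the start, where a TATA box lies in many genes. No 2 of the matches overlapped. Over all 27457 RefSeq gene starts, windows of this length held GATAAG in 6.07%, TGACG in 19%, AGGTCA in 13.7%, AGTTCA in 12.1%, TCAAGG in 12.4%, CACGTG in 5.79% and TATAAA in 13.1%. The Nr5a2 and GATA motifs were added after the letters had been seen. A match describes the letters and not a bound site. Of the 25 genes with the smallest p, 20 had a window, and the motif most often found in them was TGACG, in 5 of 20. TGACG is the shortest of the 7 motifs and also the most common over all gene starts (19%), so nothing is read from that count.

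Genes of fat absorption and use were mostly higher by mean in VSG. Creb3l3, an endoplasmic reticulum-bound transcription factor of liver and gut that acts on triglyceride genes, read 9.04, 8.29, 8.99, 7.97, 8.35 and 8.80 in VSG and 7.98, 7.56, 7.63, 8.60, 7.28 and 6.67 in Sham_VSG_PF. Pair-fed replicate 4, at 8.60, and by a narrow margin replicate 1 lay within the VSG range, and the other 4 lay below it. The difference was 0.95 (0.40 to 1.51; adjusted p = 0.579), and after bypass it was 1.17 against the bypass sham (adjusted p = 0.0706). Mttp, which loads triglyceride onto apolipoprotein B, was higher by 0.42 (0.11 to 0.73; adjusted p = 0.655), with means of 9.24 ± 0.27 and 8.82 ± 0.27 (SD, n = 6). In the list of lipid absorption and chylomicron genes 19 of 23 members were higher in VSG, with a median of 0.20 and 0 past the threshold. The mean of this list lay between 8.01 and 8.60 in VSG and between 7.87 and 8.42 in Sham_VSG_PF, and the lowest array of each group was one high in B and plasma cell genes, replicate 4 and replicate 5.

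Fatty acid synthesis and oxidation genes had medians of like size. All 12 tested genes of fatty acid synthesis were higher by mean in VSG than in Sham_VSG_PF, with a median of 0.21 and 0 past the threshold. Against Sham_VSG the list median was -0.03 for VSG, with 5 of 12 genes higher. For Sham_VSG_PF against Sham_VSG it was -0.17, with 3 of 12 higher. Srebf1, the transcription factor that drives them, differed by 0.30 (0.04 to 0.55; adjusted p = 0.780). Of 28 oxidation genes 21 were higher in VSG than in Sham_VSG_PF (median 0.19, 0 past the threshold). Against Sham_VSG the oxidation list median was 0.04 for VSG and -0.11 for Sham_VSG_PF. The mitochondrial enzymes Decr1 and Acaa2 were higher by 0.45 and 0.41 (both with an adjusted p of 0.596), and Hadha, a subunit of the trifunctional protein, by 0.20 (adjusted p = 0.773). Cpt1a, the gate for fatty acids into mitochondria, was higher by 0.12 and Pdk4, which holds back pyruvate oxidation, by 0.69, with 95% intervals of -0.14 to 0.38 and -0.19 to 1.57. Pdk4 read highest, at 7.52, in VSG replicate 1, the array high in fat cell genes, and its difference was 0.471 without that array, 0.436 without pair-fed replicate 5 and 0.346 without the arrays high in B and plasma cell genes. Cidec, a lipid droplet protein that the fat cell list also holds, differed by 0.43 (-0.08 to 0.94). It was highest in VSG replicate 1 as well, at 7.93, and differed by 0.274 without that array, 0.268 without pair-fed replicate 5 and 0.096 without the arrays high in B and plasma cell genes. The part of other cell types in these values was not tested.

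Angptl4 ran against its list. It encodes a secreted inhibitor of lipoprotein lipase that rises in fasting, and it was singled out after its values were seen. VSG arrays read 5.06, 5.32, 3.16, 5.13, 6.92 and 5.31, pair-fed arrays 5.60, 6.76, 6.61, 6.93, 6.06 and 6.12 and Sham_VSG arrays 4.97, 6.08, 5.55, 5.46, 5.32 and 5.53. VSG replicate 3 was far below all others, and replicate 5 was at the top of the pair-fed range. The difference was -1.20 (-2.11 to -0.29), or 2.29-fold lower in VSG, with an adjusted p of 0.705. In the bypass rats Angptl4 differed the other way, by 1.39.

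Other enzymes of membrane lipids were among the 10 genes of at least 2-fold difference. Abhd3, a phospholipase that acts on phosphatidylcholine with medium-chain fatty acids in mice, read 5.30, 5.29, 4.71, 4.99, 6.25 and 4.79 in VSG, 3.85, 2.65, 2.96, 4.02, 5.11 and 5.03 in Sham_VSG_PF and 6.23, 4.69, 6.48, 4.66, 4.60 and 5.72 in Sham_VSG. In the pair-fed group 4 of the 6 values lay below every VSG and Sham_VSG value, while VSG and Sham_VSG shared a range and their means differed by -0.17. VSG exceeded Sham_VSG_PF by 1.29 (0.54 to 2.03), or 2.44-fold, with an adjusted p of 0.579. Asah2, the neutral ceramidase of the brush border, was higher by 1.06 (0.17 to 1.95; adjusted p = 0.770), with VSG replicate 1 highest at 6.58. That array was also the one high in fat cell genes, and without it the difference was 0.70.

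The largest difference of all lay in a bile acid target and did not separate the groups. Fgf19, usually called FGF15 in rodents, is the hormone that ileal enterocytes release when bile acids activate the nuclear receptor FXR, and Nr0b2 (SHP) is a repressor under the same receptor. Fgf19 read 10.73, 9.25, 11.37, 9.83, 5.33 and 11.07 in VSG, 9.73, 4.40, 6.23, 9.72, 6.00 and 7.94 in Sham_VSG_PF and 11.13, 8.28, 10.68, 9.96, 5.69 and 9.78 in Sham_VSG. Nr0b2 read 9.01, 7.71, 9.10, 7.08, 3.08 and 8.88 in VSG, 7.77, 4.40, 4.50, 6.59, 5.10 and 4.65 in Sham_VSG_PF and 8.83, 6.47, 8.38, 7.75, 3.98 and 7.58 in Sham_VSG. Both genes were lowest in the same VSG array, replicate 5, and highest in the same pair-fed array, replicate 1, and Sham_VSG replicate 5 was lowest in both. VSG exceeded Sham_VSG_PF by 2.26 for Fgf19 (0.02 to 4.49; 4.78-fold) and by 1.97 for Nr0b2 (0.16 to 3.79; 3.93-fold), with adjusted p of 0.833 and 0.780. The SD within VSG was 2.23 for Fgf19 and 2.30 for Nr0b2, and with 1 array left out the differences ran from 1.67 (without pair-fed replicate 2) to 3.11 (without VSG replicate 5) for Fgf19 and from 1.65 (without VSG replicate 3) to 2.85 (without VSG replicate 5) for Nr0b2.

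The genes of bile acid transport and binding did not share that spread. Slc10a2 differed by 0.16, Fabp6 by 0.06, and Slc51a and Slc51b, the subunits that pass bile acids on to blood, by 0.14 and -0.01, with adjusted p above 0.05 for all 4. The list of 11 bile acid genes had 8 higher and a median of 0.14 (0.0537 to 0.202 with 1 array left out). Bypass went the other way for Fgf19 and Nr0b2, at -4.06 and -2.29 against Sham_RYGB (adjusted p = 0.134 and 0.275). The difference between the operations' effects, 6.31 for Fgf19 and 4.26 for Nr0b2, missed the threshold as well (adjusted p = 0.337 and 0.391).

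**Figure D3:**
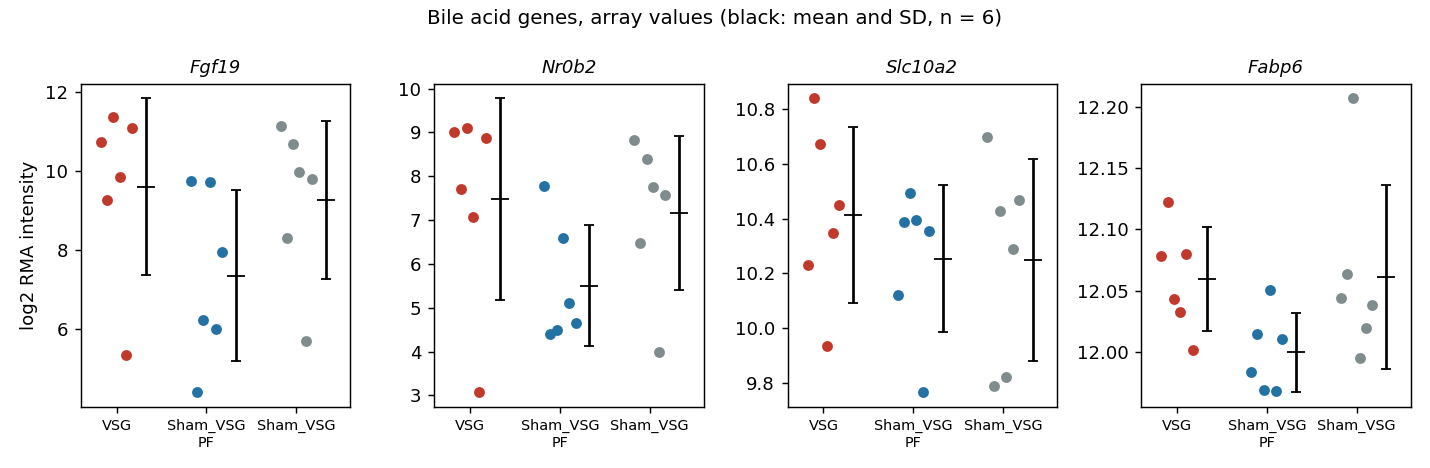
Log2 RMA intensity of Fgf19, Nr0b2, the bile acid importer gene Slc10a2 and the binding protein gene Fabp6 in each rat. The mean and SD (n = 6) are in black, and each gene has a vertical scale of its own. Fgf19 and Nr0b2 span several log2 units within every group, whereas Fabp6 stays between 11.97 and 12.21 in all 18 arrays.

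Amino acid transporters and sugar genes were mostly higher by mean in VSG. Slc3a2, the heavy chain that carries several amino acid exchangers to the membrane, read 8.77, 8.70, 9.0, 8.40, 8.75 and 8.60 in VSG and 8.27, 8.48, 8.34, 8.57, 8.17 and 8.20 in Sham_VSG_PF. VSG replicate 4 was the only VSG array below any pair-fed array. The difference was 0.36 (0.18 to 0.55; adjusted p = 0.489). Slc43a2, an exporter of large neutral amino acids, was higher by 0.51 (0.21 to 0.81; adjusted p = 0.579), and Slc7a8, a light chain that pairs with Slc3a2, by 0.39 (adjusted p = 0.833). In all, 11 of 14 peptide and amino acid transporters were higher (median 0.14, 0 past the threshold), as were 8 of 10 peptidases (median 0.11), among them Lap3 (0.16) and Ace (0.19). Ace differed by 0.411 without VSG replicate 4 and by 0.0423 without pair-fed replicate 5. Of 9 sugar genes 8 were higher, with a median of 0.21 that ran from 0.108 (without pair-fed replicate 5) to 0.371 (without VSG replicate 4) and was -0.008 without the 4 arrays high in B and plasma cell genes. The list was led by the trehalase gene Treh at 0.68 (0.23 to 1.13; adjusted p = 0.596). Pck1, which makes glucose from its precursors, differed by 0.59 (-0.42 to 1.60).

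The title of the series names iron absorption, and iron genes gave small differences. Ferroportin, Slc40a1, which exports iron to blood, differed by 0.14, the ferroxidase Heph by 0.11, the ferric reductase Cybrd1 by -0.27, and Epas1, the hypoxia factor that drives iron uptake genes in the duodenum, by 0.22. The 95% interval of each held 0, and the widest, for Cybrd1, ran from -0.85 to 0.32. Transferrin receptor, Tfrc, read 7.91 to 8.49 in VSG and 7.42 to 8.21 in Sham_VSG_PF, a difference of 0.30 (-0.02 to 0.61; adjusted p = 0.833). Ireb2, the iron regulatory protein that stabilizes its messenger RNA, was higher by 0.19 (0.02 to 0.36; adjusted p = 0.780). Of 20 iron genes 10 were higher and 10 lower (median 0.03), and of 21 hypoxia genes 8 were higher (median -0.04).

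Gut hormone genes were mostly lower by mean. Gcg, the precursor of GLP-1, differed by 0.05 (-0.32 to 0.43), Pyy by -0.24 (-0.53 to 0.04) and Nts, which encodes neurotensin, by -0.15 (-0.72 to 0.43). Tph1, the first enzyme of serotonin synthesis in enterochromaffin cells, read 4.61, 3.99, 4.60, 5.09, 4.29 and 4.88 in VSG and 5.33, 5.39, 5.44, 5.38, 4.91 and 5.04 in Sham_VSG_PF. The VSG values lay below the pair-fed ones except for replicate 4, which exceeded 2 of them. The difference was -0.67 (-1.10 to -0.25; adjusted p = 0.581). Of 17 hormone genes 13 were lower (median -0.15) and 0 passed. That median was -0.0299 without VSG replicate 4, 0.0471 with a smooth muscle covariate and 0.0885 in the arrays high in B and plasma cell genes alone. Vip, a transmitter of enteric neurons that the list also holds, differed by -0.60 (-1.20 to -0.00071).

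Of the 25 genes of smallest p, 11 were lower in VSG. Hikeshi, which carries the chaperone Hsp70 into the nucleus, read 6.98, 7.10, 6.83, 7.21, 7.08 and 6.97 in VSG and 7.37, 7.27, 7.41, 7.23, 7.55 and 7.57 in Sham_VSG_PF, and every VSG value lay below every pair-fed value. Its difference was -0.37 (-0.56 to -0.18; adjusted p = 0.553). Dnajb4, a partner of Hsp70, differed by -0.46 (adjusted p = 0.560). Cd14, the receptor through which macrophages sense bacterial lipopolysaccharide, read 6.15, 5.99, 6.44, 6.61, 6.45 and 6.22 against 6.84, 6.89, 6.82, 6.59, 7.01 and 6.59, with VSG replicate 4 alone above any pair-fed array. It differed by -0.48 (-0.73 to -0.23; adjusted p = 0.558). Vamp5 and Itm2a, whose groups did not overlap either, differed by -0.41 and -0.62.

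Smooth muscle genes were mostly lower by mean as well. Myl9, the regulatory light chain of smooth muscle myosin, read 9.32, 9.49, 9.51, 9.39, 9.72 and 9.54 in VSG, 9.86, 9.99, 10.02, 9.91, 9.39 and 10.23 in Sham_VSG_PF and 9.56, 9.31, 9.52, 9.55, 9.41 and 9.53 in Sham_VSG. The pair-fed group stood high except for replicate 5, and VSG and Sham_VSG shared a range. The difference from Sham_VSG_PF was -0.40 (-0.63 to -0.17; adjusted p = 0.579). Of 12 smooth muscle genes 3 were higher and 9 lower in VSG (median -0.22), and the list mean lay between 7.78 and 8.35 in VSG and between 7.90 and 8.54 in Sham_VSG_PF. With that list mean, which itself differed between the groups, as a covariate 32 genes passed, among them Slc30a10, Per1, Slc3a2, S100g, Tm4sf5, Cd14, Hikeshi and Mttp, and S100g then differed by 2.14 (adjusted p = 0.0367) and Slc30a10 by 1.80 (adjusted p = 0.00694). The same covariate moved immune gene lists: the B and plasma cell median was -1.34 (-0.13 without it). The T and NK cell median was -0.72 (-0.28 without it). The 32 genes also held Mzb1 (-1.58), of the B and plasma cell list, Ccl17 (-1.22), Bcl2a1 (-1.18) and Tlr10 (-0.69). The reason for these shifts was not tested. No other alternative gave a gene past the threshold.

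Of 26 T and NK cell genes 24 were lower by mean in VSG (median -0.28), of 17 B and plasma cell genes 16 (median -0.13), and all 9 MHC class II genes (median -0.15), with 0 past the threshold in each. Over all genes tested, 5970 of 10918 were lower by mean. With 1 array left out the T and NK cell median ran from -0.455 (without VSG replicate 4) to -0.106 (without pair-fed replicate 1). The B and plasma cell median ran from -0.752 without VSG replicate 4 to 0.29 without pair-fed replicate 5, and was also above 0 without pair-fed replicate 1 (0.216) and, by at most 0.0605, without VSG replicate 3, 5 or 6, so that its direction rests on single arrays. Other immune lists lay near 0, with medians of -0.05 for macrophages and dendritic cells (10 of 27 genes higher), 0.03 for mast cells and eosinophils and 0.01 for interferon response genes. Gzma, a granule protease of cytotoxic lymphocytes, differed by -0.89 (-1.74 to -0.03; adjusted p = 0.823). The T and NK cell list mean lay between 4.81 and 6.41 in VSG and between 5.11 and 6.59 in Sham_VSG_PF, and in both groups the highest values were in arrays high in B and plasma cell genes. The fat cell list had 13 of 14 genes higher (median 0.41), and without VSG replicate 1 its median was 0.04.

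**Figure D4:**
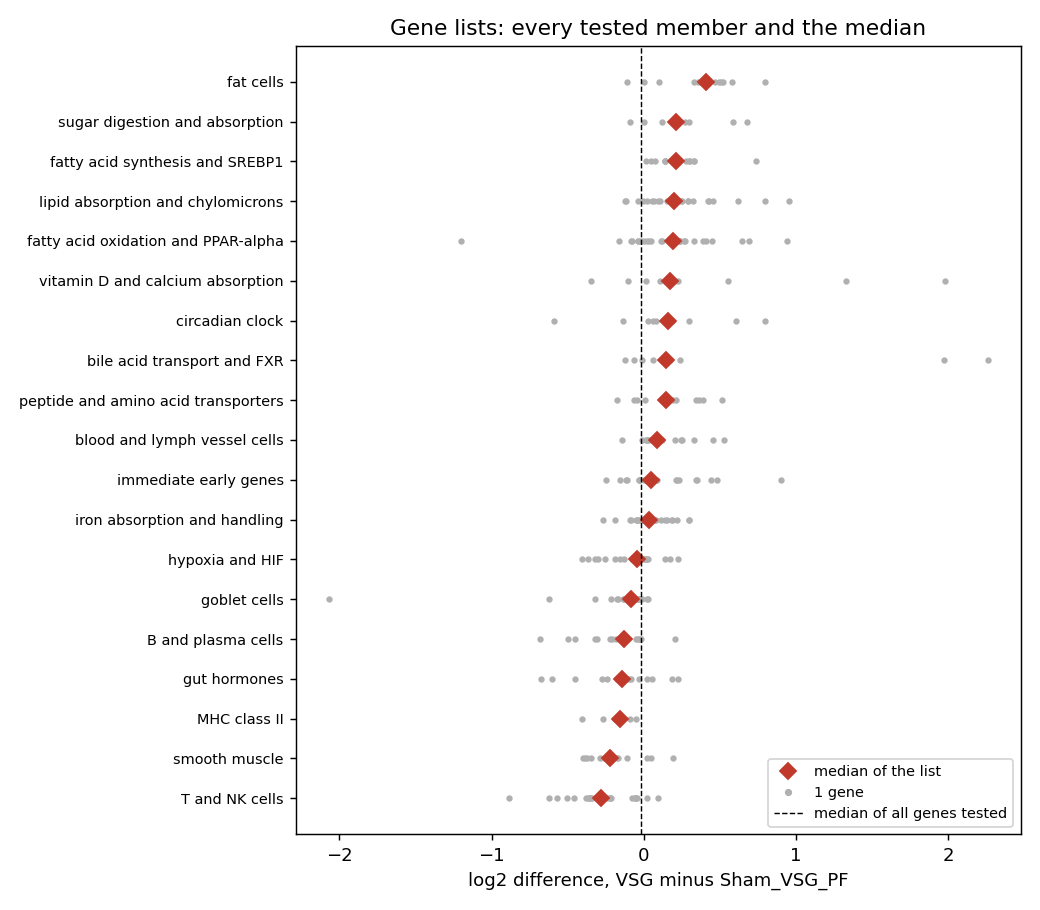
Log2 difference VSG minus Sham_VSG_PF for each tested member (grey) of 19 gene lists and the median of each list (diamond), with the median of all genes tested as a dashed line. Lipid, sugar and vitamin D lists have medians near 0.2, the T and NK cell list has -0.28, and single genes such as S100g, Fgf19 and Nr0b2 lie far from their lists.

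Of the 25 genes with the smallest p, 14 were higher and 11 lower in VSG, and 5 did not overlap between the groups, beside 0.266% of all genes tested. Genes of small p are those with separated groups, so nothing is read from that count. Besides Hikeshi, Vamp5 and Itm2a these were Entrep1, at 4.34, 3.87, 3.93, 4.14, 3.71 and 3.83 against 3.64, 3.67, 3.29, 3.21, 3.53 and 3.19, and Actg1, the cytoplasmic gamma-actin, at 11.26, 11.26, 11.11, 11.30, 11.24 and 11.17 against 11.09, 10.99, 10.97, 10.96, 11.09 and 10.92. Entrep1 was higher by 0.55 and Actg1 by 0.22, with adjusted p of 0.558 and 0.579. Sham_VSG arrays of Actg1, at 11.18 to 11.32, lay with VSG and above every pair-fed array. The array of VSG that came nearest to the pair-fed mean was replicate 4 for 8 of the 25 genes, and the pair-fed array nearest to the VSG mean was replicate 4 for 8.

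Freely fed sham rats place these genes on a scale. VSG minus Sham_VSG and Sham_VSG_PF minus Sham_VSG share arrays with the comparison above and with each other, so they are given side by side and not as support. The Sham_VSG mean lay between the other means for 21 of the 25 genes and beyond the VSG mean for 4 (Pigp, Actg1, Myl9 and Abhd3). The 25 genes were chosen for the difference between those means, which by itself places another group between them, so nothing is read from that count. The mean of Sham_VSG was nearer to VSG for 16 of the 25 and nearer to Sham_VSG_PF for 9. For S100g, VSG stood 1.75 above Sham_VSG and the pair-fed group -0.24 from it. For Abhd3 the same values were -0.17 and -1.46, and for Fgf19 they were 0.34 and -1.92. In the same order, list medians were 0.16 and -0.07 for lipid absorption and -0.03 and 0.11 for gut hormones. They were 0.04 and 0.25 for smooth muscle and -0.47 and -0.22 for T and NK cells. Neither of these comparisons had a gene past the threshold (lowest limma adjusted p = 0.183 and 0.186). At an unadjusted limma p below 0.05 there were 661 and 582 of the 10918 genes tested, beside 649 (5.94%) for VSG against Sham_VSG_PF.

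**Figure D5:**
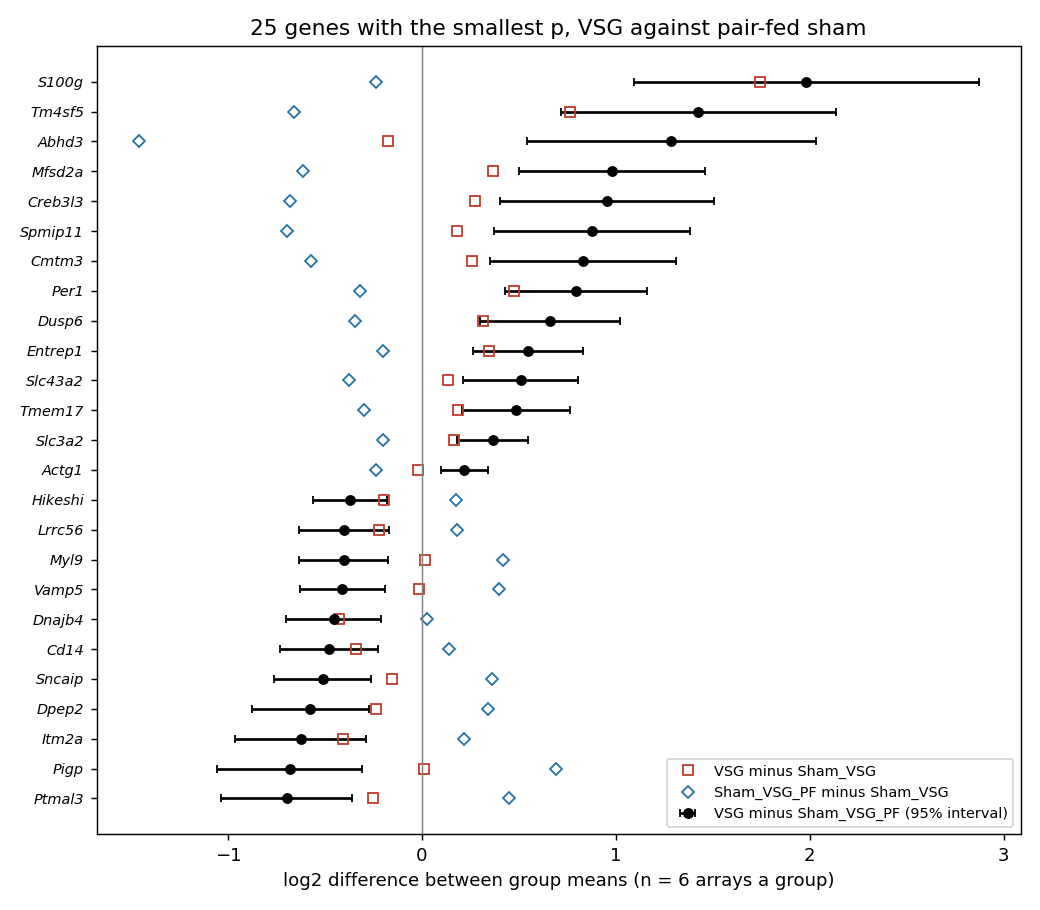
The 25 genes with the smallest p, with the log2 difference VSG minus Sham_VSG_PF and its 95% interval (black), VSG minus Sham_VSG (red squares) and Sham_VSG_PF minus Sham_VSG (blue diamonds), each from means of 6 arrays. S100g has its red square near the black point, and Abhd3, Myl9, Actg1, Vamp5 and Pigp have it near 0, with the blue diamond on the other side.

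The remaining genes of smallest p had smaller or dimmer signals. Dusp6, a phosphatase of the kinase ERK, was higher by 0.66, Cmtm3 by 0.83, Spmip11 by 0.88 and Tmem17, a protein of the ciliary transition zone, by 0.49. Dpep2, a dipeptidase, differed by -0.58, Pigp, which acts in GPI anchor synthesis, by -0.68, and Lrrc56 by -0.40. Sncaip, with means of 2.37 and 2.88, lay near the filter on dim genes at 2.33. Ptmal3 differed by -0.70, and its signal cannot be told apart here from that of other prothymosin alpha copies. Areg, an activator of EGF receptor signalling, was higher by 0.75 (0.21 to 1.28; adjusted p = 0.622), and Klf15, a transcription factor of fasting metabolism, by 0.45 (adjusted p = 0.770).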

How the data were processed

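Per the submitters' processing notes, the authors deposited log2 values from RMA, run in Expression Console 1.3.0.187 of Affymetrix. Per the labels' protocols, total RNA was extracted with an RNeasy Mini kit, amplified with Ovation PicoSL WTA V2 and biotin-labelled. Which arrays were normalized together, scan dates and detection calls are not given in the sources used here.

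Of 36685 transcript clusters, 14824 carried 1 symbol, 829 several and 21032 none in the platform annotation. The brightest cluster per symbol was kept (14557), and a filter on dim genes at the 25th percentile of the mean (2.33) left 10918. Array medians lay between 3.10 and 3.25. limma 3.58.1 in R 4.3.3 fitted a mean per group to all 30 arrays (25 residual degrees of freedom), with two-sided p-values and Benjamini-Hochberg adjustment, checked on simulated data. The number of rats limits the precision.

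Named genes were the 25 of smallest p, 2 per list from 9 lists, and a fixed set, 56 in all. Members, the 52 lists and the rule were chosen with earlier results of these data known. Promoter windows came from RefSeq (GRCr8), with 45 of 56 genes matched. Figures were drawn with matplotlib.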

Additional observations from a re-analysis of the deposited data

Results flagged for a closer look

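In each group of 6 arrays of each named gene, the highest and the lowest value were checked for a gap to the nearest array larger than Dixon's 95% critical value as a share of the group's range. Of 168 such groups 12 held such an array, and chance flags about 1 in 20. In VSG, replicate 5 was far below the others for Nr0b2 (3.08, nearest 7.08), Fgf19 (5.33, nearest 9.25) and Itm2a (3.78, nearest 4.61). Replicate 4 was far below for Mttp (8.71, nearest 9.23) and Ace (7.22, nearest 8.36), replicate 2 for Vamp5 (7.33, nearest 7.73), and replicate 3 far above for Slc43a2 (9.21, nearest 8.86). In Sham_VSG_PF, replicate 4 was far above the others for S100g (9.81, nearest 8.66) and replicate 3 for Klf15 (4.13, nearest 3.82). In Sham_VSG, replicate 4 was low for Tph1 (4.22, nearest 5.07), replicate 2 was low for Ace (7.33, nearest 7.98) and replicate 3 was high for Fabp6 (12.21, nearest 12.06).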

How the results depend on the processing

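The number of genes past an adjusted p of 0.05 was 0 under every alternative except the smooth muscle covariate, which gave 32. In the main fit 649 of 10918 genes (5.94%) had an unadjusted limma p under 0.05. Of the same 10918 genes there were 1862 with the smooth muscle covariate and 519 to 864 with 1 array left out. The fit over every transcript cluster gave 1346, but it tested more features than these 10918, so that count is not comparable with 649. Values did not overlap in 29 of 10918 genes (0.266%) in the main comparison, and in 54 features over every cluster, again among more features. Of the same 10918 genes, 560 did not overlap without the arrays high in B and plasma cell genes (4 against 4 arrays). The same number held without arrays high in either list. There were 66 without the array high in fat cell genes, and 45 to 99 with 1 array left out. With only the arrays high in B and plasma cell genes (2 against 2) there were 3433. Fewer arrays separate more readily. The replicate numbers did not pair the arrays (correlations of -0.52 to 0.33), and a fit with the replicate number as a block gave 0 genes (lowest adjusted p = 0.976). All 25 genes of smallest p kept their sign throughout, as did 51 of the 56 named genes, which include the 25. The 25 were chosen for a small p on these same arrays, which by itself tends to keep the sign. Nothing is read from these counts. Of 52 list medians 28 kept their sign. The other 24 included B and plasma cells (to 0.29), gut hormones (to 0.0885), sugar genes (to -0.008), fat cells (to -0.0164) and heat shock genes (to 0.0235), and 13 of the 24 changed sign with 1 array left out. The medians of 9 lists moved by more than the spread between replicates under at least 1 alternative.

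Slc51b, near 0, turned positive under quantile normalization (0.0222), centring (0.008), the smooth muscle covariate (0.0922), without arrays high in B and plasma cell genes or in either list (0.024) and without the array high in fat cell genes (0.0157). Leaving out 1 array gave -0.0621 to 0.0359 for Slc51b, -0.058 to 0.138 for Gcg and -0.309 to 0.011 for Nts. Gcg (-0.0805), Pck1 (-0.008) and Slc40a1 (-0.003) turned negative without the arrays high in B and plasma cell genes, and equally without those high in either list. Nts turned positive with the smooth muscle covariate (0.11) and in the B and plasma cell arrays alone (0.383). The cause was not tested.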

Other observations

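The genes named here and in the next paragraph were chosen after their values were seen. Gene groups outside the comparisons above gave these values, all from the same VSG against Sham_VSG_PF fit and none past the threshold. Of 17 goblet cell genes 15 were lower in VSG by mean (median -0.08). Tff3, the trefoil peptide of mucus, differed by -0.18 (adjusted p = 0.757), Agr2, which folds mucins, by -0.17 (adjusted p = 0.780), and Spink4 by -0.62 (adjusted p = 0.818). Of 16 blood and lymph vessel genes 14 were higher (median 0.08), with Lyve1, a marker of lymphatic vessels, at 0.33 and Plvap, a protein of fenestrated capillaries, at 0.25. Of 22 immediate early genes 15 were higher (median 0.05); Fos, which neural and growth signals switch on within minutes, differed by 0.90 (0.35 to 1.45; adjusted p = 0.579), with all but 1 pair-fed array below the whole VSG range. Of 20 genes of chloride, sodium and water transport 16 were higher (median 0.11), with the water channel Aqp1 at 0.70 (0.19 to 1.21; adjusted p = 0.650), and of 21 mineral and vitamin carriers 14 (median 0.12), with the magnesium channel Trpm6 at 0.66 (0.20 to 1.12; adjusted p = 0.609) and the retinol carrier Rbp2 at 0.30 (0.11 to 0.48; adjusted p = 0.580). In the xenobiotic list 19 of 28 genes were lower (median -0.07), among them Nqo1 (-0.64) and Gsta1 (-0.64).

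St6galnac1, which adds sialic acid to mucin glycans and belongs to the goblet cell list, was among the 10 genes of at least 2-fold difference, at -2.07 (-4.49 to 0.36; adjusted p = 0.865). Its 30 array values fell in 2 separate ranges, 4.08 to 5.75 and 8.96 to 9.60. The upper range held 1 of 6 VSG, 4 of 6 Sham_VSG_PF, 3 of 6 Sham_VSG, 2 of 6 RYGB and 1 of 6 Sham_RYGB arrays. Its group means therefore count how many rats lay in each range, and no array lay between them.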
